A study of Mus musculus with 6 samples.

Results

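Apolipoproteins are the protein parts of lipoprotein particles, and 9 of their genes were followed in kidney RNA of db/db mice with and without long-term atorvastatin. The genes were chosen by symbol as apolipoproteins expressed in kidney: Apoe, Apoc1, Apoc2, Apoc4, Apob, Apod, Apom, Apoa1 and Apoh. All 9 were found among the 17684 genes of the table. Kidneys of 6 mice were sequenced, 1 library per mouse, with 3 mice in the Db group and 3 in the Db + Ato10 group. Mice of the db/db genotype have a defective leptin receptor, with obesity and diabetes as a result. All 6 mice carried db/db on the strain labelled C57 BLKS/L and were 50 weeks old. Db mice had received normal saline and Db + Ato10 mice atorvastatin, an inhibitor of cholesterol synthesis, at 10 mg/kg per day, both for 40 weeks. By the study's methods the drug was given by gavage on consecutive days of the week and only males were used. One label field gives atorvastatin for all 6 mice, and the groups follow the treatment field, which separates saline from atorvastatin.

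The libraries held 13134930, 11381678 and 12426051 counts in Db replicates 1 to 3 and 14578023, 14667909 and 13133241 in Db + Ato10 replicates 1 to 3. At this depth 3 counts equal 0.198 to 0.260 CPM (counts scaled to a common library size by TMM), and a level below that was not reliably detectable. These floors, and the counting intervals given for low genes, cover counting error only. Some libraries stood apart from their groups. On the first principal component of log2 CPM (71.1% of the variance) Db + Ato10 replicate 1 lay at -107 and replicate 2 at -46.1, whereas replicate 3, at 18.8, was closest to the Db libraries, of which replicate 2 lay at 26.9. The other Db libraries lay at 55.4 and 52. The 4 Y-linked genes Ddx3y, Eif2s3y, Kdm5d and Uty summed to 0.159 CPM in Db replicate 1 and to between 115 and 143 CPM in the other 5 libraries, although only males were used by the methods. Fold changes of the apolipoprotein genes with single libraries left out are therefore given beside those of all 6.

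Apolipoproteins hold lipoprotein particles together, activate or inhibit the enzymes that act on them and serve as ligands of their receptors. Liver and intestine make most of them. Within tissues, macrophages are a known source of apolipoprotein E, and the kidney is a known site of apolipoprotein M synthesis.

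Levels were compared between genes as FPKM, which is scaled to transcript length. In the Db group Apoe was highest, with 374 ± 242 FPKM (SD, n = 3), followed by Apom with 81.8 ± 21.6 FPKM and Apob with 32.0 ± 3.07 FPKM (SD, n = 3 for each). Apoc1 came next with 8.88 ± 5.40 FPKM (SD, n = 3). The ranges of these 4 genes over the Db libraries did not overlap with those of their neighbours in the order. Apoa1, Apoh, Apod, Apoc2 and Apoc4 followed, with means from 2.80 down to 0.230 FPKM, and each overlapped with the next. In the Db + Ato10 group Apoe was again highest, with 1988 ± 1472 FPKM (SD, n = 3). The order below it was Apom, Apoc2, Apob, Apoc1, Apoc4, Apoa1, Apoh and Apod, with means from 43.4 down to 0.943 FPKM, and each of these ranges overlapped with the next. Among all genes of the table Apoe ranked 488, 139 and 399 by FPKM in Db replicates 1 to 3 and 16, 13 and 220 in Db + Ato10 replicates 1 to 3.

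The comparison between the groups asks which genes differed after the treatment. The 13679 genes that reached 10 counts in 3 or more libraries were tested with the quasi-likelihood test of edgeR. To be called, a gene had to differ by more than 1.5-fold with p under 0.05 after Benjamini-Hochberg adjustment. Of the 9 apolipoprotein genes 8 were tested, and Apoc4 had too few counts. Apoc2 passed the filter only through the Db + Ato10 libraries, so it had to be higher there. With edgeR 0 of the 8 were called, as were 0% of all tested genes. At an unadjusted p under 0.05 Apoe and Apoc2 were higher (2 of 8, beside 11.2% of all tested genes) and 0 of 8 were lower (beside 5.71%). Without genes that passed the filter only through the Db + Ato10 libraries, 1 of 7 was higher, Apoe, beside 1440 of 13573 tested genes. DESeq2 called Apoe and Apoc2 higher (beside 5.17% of all tested genes) and 0 of 8 lower (beside 1.29%). The groups did not overlap for Apoc2, 1 of 8 genes, with every Db + Ato10 library above every Db library (beside 12.0% of tested genes). The filter had set this direction and, in counts, the lack of overlap. Every other tested apolipoprotein gene overlapped between the groups. In the other direction 0 of 8 genes were without overlap (beside 11.3%). The median log2 fold change of the 8 genes, Db + Ato10 over Db, was -0.27, beside -0.0063 for all tested genes. It turned positive without Db replicate 2 (0.39) and with limma-voom (0.076). Single values were also compared with a two-sided exact permutation test of log2 CPM, which with 3 mice against 3 cannot go below p = 0.1. All p-values measure the spread between these mice.

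**Figure D1:**
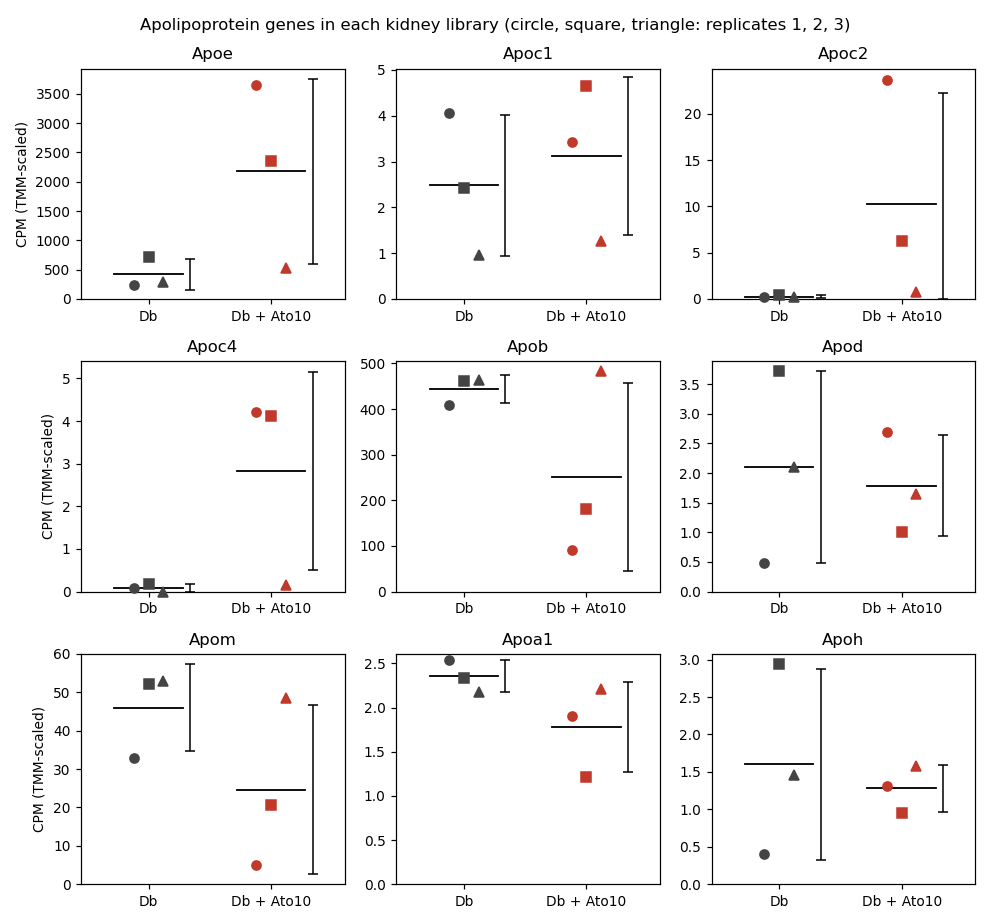
TMM-scaled CPM (vertical axis, from 0, with its own scale for each gene) of the 9 apolipoprotein genes in the Db and Db + Ato10 groups. Each point is 1 library, horizontal lines are group means and bars are SD (n = 3), drawn no lower than 0. For Apoe, Apob and Apom, Db + Ato10 replicate 3 lies among or near the Db libraries, and replicates 1 and 2 lie away from them.

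Apoe, Apoc1, Apoc4 and Apoc2 are neighbours in 1 gene cluster. Apoe encodes the ligand by which remnant particles are taken up by receptors. It had 237, 720 and 298 CPM in Db replicates 1 to 3 and 3658, 2351 and 522 CPM in Db + Ato10 replicates 1 to 3. Db + Ato10 replicates 1 and 2 were above every Db library, but replicate 3 was below Db replicate 2, so the groups overlapped. Apoe took 0.0227%, 0.0730% and 0.0296% of all counts in the Db libraries and 0.381%, 0.237% and 0.0505% in the Db + Ato10 libraries. With edgeR the log2 fold change of Apoe was 2.38, with a standard error of 0.78 and an adjusted p of 0.239 (exact permutation p = 0.2), and 2 of 3 Db + Ato10 libraries were above all Db libraries. DESeq2 gave 2.39 with an adjusted p of 0.0155, within a range from 2.23e-06 to 0.604 over all alternatives. The lowest came from DESeq2 without Db + Ato10 replicate 3, a fit that called 19.3% of the tested genes. DESeq2 no longer called Apoe without Db + Ato10 replicate 1 or 2 or without Db replicate 1 or 3 (DESeq2 adjusted p from 0.124 to 0.418), with log2 fold changes from 1.79 to 2.35, in fits that called 2.33%, 2.77%, 1.44% and 1.64% of the tested genes. It called Apoe without Db replicate 2, beside 4.60% of the tested genes. Apoe stayed higher in the Db + Ato10 group with any 1 library left out, while its adjusted p varied. Leaving out Db + Ato10 replicate 1 gave 1.80 (edgeR adjusted p = 0.390). Leaving out Db replicate 1 gave 2.11 (edgeR adjusted p = 0.588), and leaving out Db replicate 2 gave 3.03 (edgeR adjusted p = 0.403). Without Db + Ato10 replicate 3 it was 2.85, and Apoe was then called (edgeR adjusted p = 0.0386). In that fit 2 of 7 tested apolipoprotein genes were called, Apoe and Apob, beside 8.18% of the tested genes in either direction. Of the 4 Apoe transcripts counted, NM_009696.4 held between 94.3% and 99.4% of the Apoe counts in each library.

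Apoc2 encodes the cofactor that lipoprotein lipase needs. It had 2, 5 and 2 counts in Db replicates 1 to 3 and 360.04, 92 and 10 counts in Db + Ato10 replicates 1 to 3. Expressed as CPM these were 0.159, 0.433 and 0.162 in the Db group and 23.7, 6.21 and 0.788 in the Db + Ato10 group. Db replicates 1 and 3 were under the floor of 3 counts, so the size of any fold change or ratio of Apoc2 is uncertain. All 3 Db + Ato10 libraries were above all 3 Db libraries, with replicate 3 closest to them and replicate 1 highest. Apoc2 passed the filter only through the Db + Ato10 libraries, so in counts the groups could not overlap and the direction was set. With edgeR the log2 fold change of Apoc2 was 5.32, with a standard error of 1.32 and an adjusted p of 0.239 (exact permutation p = 0.1, the smallest possible). The permutation p follows from this separation and adds no support. DESeq2 gave 5.37 with an adjusted p of 0.000314, and over all alternatives the adjusted p ran up to 0.604. The log2 fold change of Apoc2 was smaller with limma-voom (4.33) and with limma on log2 of FPKM + 1 (2.93) or TPM + 1 (3.20). With 462 counts in the Db + Ato10 group and 9 in the Db group, the ratio of summed counts after scaling was 43.9, with an exact conditional 95% interval from 22.9 to 96.6. For Db + Ato10 replicate 3 alone, the ratio to the Db group was 3.19 (interval from 1.17 to 8.89). These intervals cover counting error only and leave out the spread between mice. Replicate 1 alone held 360.04 of the Db + Ato10 counts. Without Db + Ato10 replicate 1 the log2 fold change was 3.76, in a fit with no filter on low counts, and without Db replicate 1 it was 5.10.

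Apoc4, which lies beside Apoc2, had 1, 2 and 0 counts in Db replicates 1 to 3 and 64, 61 and 2 counts in Db + Ato10 replicates 1 to 3. Replicates 1 and 2 of the Db + Ato10 group stood far above the rest, and replicate 3 was at the Db level. Every Db library and Db + Ato10 replicate 3 were under the floor of 3 counts. The ratio of summed counts was 36.2 (127 against 3 counts, exact conditional 95% interval from 12.1 to 178, for counting error only). For Db + Ato10 replicate 3 alone it was 1.92 (interval from 0.160 to 16.7), so a difference was not detectable there at this depth. With no filter on low counts edgeR gave Apoc4 a log2 fold change of 4.92 (adjusted p = 0.245; exact permutation p = 0.2). With a library left out of such a fit it ran from 4.38 (without Db replicate 3) to 5.82 (without Db replicate 2). In such a fit without Db + Ato10 replicate 3, chosen after seeing the data, Apoc4 and Apoc2 were both called, beside 7.87% of the genes in it (log2 fold changes 5.47 and 5.82, edgeR adjusted p = 0.0217 for each, within ranges up to 0.604 over the alternatives). The assignment of counts to Apoc4 and Apoc2 is uncertain. Exons of the read-through gene Gm44805 lie around the annotated start of Apoc4, and exons of Apoc4 lie around that of Apoc2. Gm44805 had 20.96 counts in Db + Ato10 replicate 1 and 0 in the other 5 libraries. The counts of Apoc2 were all given to transcript NM_001277944.1 in Db replicate 2 and Db + Ato10 replicates 1 and 2, and all to NM_001309795.1 in the other 3 libraries.

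Apoc1, an inhibitor of lipoprotein uptake and of lipases, had 4.05, 2.43 and 0.969 CPM in Db replicates 1 to 3 and 3.43, 4.66 and 1.26 CPM in Db + Ato10 replicates 1 to 3. High and low libraries were found in both groups, and the groups overlapped. In the edgeR fit Apoc1 differed by 0.33 on the log2 scale, with a standard error of 0.64 and an adjusted p of 0.793 (exact permutation p = 0.6). This value turned negative when Db + Ato10 replicate 2 (-0.056) or Db replicate 3 (-0.054) was left out, and it was 0.89 without Db replicate 1. The ratio of Apoe to Apoc1 in FPKM was 14.2, 74.1 and 75.6 in the Db libraries and 270, 126 and 102 in the Db + Ato10 libraries. Every Db + Ato10 library had a higher ratio than every Db library, which was not tested against other gene pairs. The ratio of Apoe to Apob was 7.16, 19.2 and 7.93 in the Db libraries and 495, 160 and 13.3 in the Db + Ato10 libraries. There Db + Ato10 replicate 3 was below Db replicate 2. Of the 6 listed genes around the cluster that were tested, Bcam, Nectin2, Relb and Clasrp were at an unadjusted p under 0.05 and higher (beside 11.2% of all tested genes), and 0 were lower (beside 5.71%). Bcam had 167, 214 and 188 CPM in the Db group and 427, 381 and 259 CPM in the Db + Ato10 group, and DESeq2 called Bcam and Relb higher (beside 5.17% of all tested genes). Tomm40 and Clptm1 had edgeR log2 fold changes of 0.12 and -0.26.

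Apob encodes the structural protein of chylomicrons and of very low and low density lipoproteins. It had 409, 462 and 463 CPM in Db replicates 1 to 3 and 90.4, 181 and 483 CPM in Db + Ato10 replicates 1 to 3. Db + Ato10 replicates 1 and 2 were below every Db library, and replicate 3 was above them all. The group means were 444 ± 30.9 CPM and 251 ± 206 CPM (SD, n = 3 for each). The edgeR log2 fold change of Apob was -0.82, with a standard error of 0.57 and an adjusted p of 0.460 (exact permutation p = 0.4). Leaving out Db + Ato10 replicate 1 gave -0.42 (edgeR adjusted p = 0.685), and leaving out Db replicate 1 gave -0.87 (edgeR adjusted p = 0.644). Apob was called when Db + Ato10 replicate 3 was left out, at -1.71 (edgeR adjusted p = 0.0393), beside 8.18% of the tested genes. Over all alternatives the adjusted p of Apob ran from 1.79e-05 (DESeq2, also without Db + Ato10 replicate 3) to 0.746. That DESeq2 fit called 19.3% of the tested genes.

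Apom, the carrier of sphingosine-1-phosphate on high density lipoprotein, had 32.9, 52.1 and 52.9 CPM in Db replicates 1 to 3 and 4.87, 20.7 and 48.4 CPM in Db + Ato10 replicates 1 to 3. Db + Ato10 replicates 1 and 2 were again below every Db library, and replicate 3 lay between Db replicates 1 and 2. For Apom the edgeR log2 fold change was -0.90, with a standard error of 0.72 and an adjusted p of 0.510 (exact permutation p = 0.2). Leaving out Db + Ato10 replicate 1, Db replicate 1 or Db + Ato10 replicate 3 gave -0.41, -1.08 and -1.84, with edgeR adjusted p-values of 0.687, 0.641 and 0.112. DESeq2 called Apom with the last of these libraries left out (adjusted p = 0.0139, within a range up to 0.776 over all alternatives), as it did 19.3% of the genes tested in that fit. In FPKM the ratio of Apob to Apom was 0.500, 0.362 and 0.354 in the Db libraries and 0.764, 0.356 and 0.405 in the Db + Ato10 libraries. Apob was thus below Apom in each library on this scale.

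Apoa1, Apoh and Apod were low in all 6 libraries. Apoa1, the main protein of high density lipoprotein, had 2.54, 2.34 and 2.18 CPM in Db replicates 1 to 3 and 1.91, 1.22 and 2.21 CPM in Db + Ato10 replicates 1 to 3. Only Db + Ato10 replicate 3 reached the Db range, and it lay just above Db replicate 3. For Apoa1 the edgeR log2 fold change was -0.41, with a standard error of 0.32 and an adjusted p of 0.510 (exact permutation p = 0.2), and it was -0.18 without Db + Ato10 replicate 2. Apoh, which binds anionic phospholipids, had between 5 and 34 counts in the Db libraries and between 14 and 20 in the Db + Ato10 libraries. Apod, a lipocalin that binds small lipids, had between 6 and 43 counts in the Db libraries and between 15 and 41 in the Db + Ato10 libraries. For both genes Db replicate 1 was the lowest and Db replicate 2 the highest of the 6 libraries. Their log2 fold changes were -0.32 (Apoh) and -0.22 (Apod), with edgeR adjusted p-values of 0.809 and 0.877, and both changed sign without Db replicate 2, Apod also without Db + Ato10 replicate 2. Without Db replicate 1 they were -0.77 (Apoh) and -0.68 (Apod). The Apod counts were given to 3 transcripts in shares that differed between libraries, with NM_007470.4 at 100% in Db replicate 1 and at 0% in Db + Ato10 replicate 2.

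Of 19 other genes classed as apolipoproteins, 8 were tested. With edgeR 0 were called, and Clu and Saa1 were higher at an unadjusted p under 0.05 and called by DESeq2. Of all tested genes, with which this list and those that follow are to be compared, 11.2% were higher and 5.71% lower at an unadjusted p under 0.05, and DESeq2 called 5.17% higher and 1.29% lower. Clu (clusterin, also named apolipoprotein J) had 788, 1180 and 633 CPM in the Db group and 1580, 2274 and 1662 CPM in the Db + Ato10 group. Among the lower genes of this list Apoo had the smallest p, with an edgeR log2 fold change of -0.53 (unadjusted p = 0.0662). Saa3, an acute phase apolipoprotein, had 3984 CPM in Db + Ato10 replicate 1, 6.89 CPM in replicate 2 and at most 0.433 CPM in the other libraries, and was not tested, since it missed the filter. Among 17 receptors, adaptors and chaperones of lipoproteins, 3 were higher and 0 lower at an unadjusted p under 0.05. The groups did not overlap for 4 higher genes (beside 12.0% of all tested genes) and for 2 lower ones, Vldlr and Dab2 (beside 11.3%). The most abundant, Lrp2 (megalin, which takes up filtered ligands), had 2238, 992 and 1909 CPM in the Db group and 183, 550 and 1502 CPM in the Db + Ato10 group. Apobr, a receptor of apolipoprotein B particles, had 0.954, 1.65 and 1.78 CPM in the Db group and 34.8, 6.21 and 2.84 CPM in the Db + Ato10 group. Of 14 tested genes of lipoprotein assembly, lipolysis and remodelling, 2 were higher and 2 lower at an unadjusted p under 0.05. Pltp, which transfers phospholipids, had an edgeR log2 fold change of 3.78, with a standard error of 1.21 and an adjusted p of 0.239. It had 3.10, 9.62 and 7.51 CPM in the Db group and 238, 31.0 and 9.53 CPM in the Db + Ato10 group. Db + Ato10 replicate 1 was highest, and replicate 3 was below Db replicate 2. Of 8 cholesterol efflux and LXR genes, 0 were at an unadjusted p under 0.05, and 0 were called by edgeR or DESeq2. Abca1, which loads cholesterol onto apolipoproteins, had 31.0, 70.9 and 43.5 CPM in the Db group and 186, 96.0 and 23.1 CPM in the Db + Ato10 group, where replicate 3 was below every Db library. It differed by 1.07 on the log2 scale, with a standard error of 0.70 and an edgeR adjusted p of 0.440. Nr1h3, which encodes an LXR, was lower in every Db + Ato10 library than in every Db library. This held for 1 of the 8 genes, beside 11.3% of all tested genes. The edgeR log2 fold change of Nr1h3 was -0.38 (unadjusted p = 0.0618).

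Markers of other cell types also differed between the libraries. The 15 macrophage markers summed to 289, 406 and 303 CPM in Db replicates 1 to 3 and to 5691, 1724 and 466 CPM in Db + Ato10 replicates 1 to 3. The order of the Db + Ato10 libraries was that of Apoe, Apoc2 and Apoc4, but Db + Ato10 replicate 3 was above every Db library in this sum and not in Apoe. This order was not particular to macrophage markers. The fibroblast sum and the urothelial and squamous sum had it too, as did the Db + Ato10 libraries along the first principal component. Of 14 tested macrophage markers 13 were higher and 0 lower at an unadjusted p under 0.05, and 12 were called by DESeq2. Lyz2 was the most abundant, and none of the 15 was at 0 in all libraries. The 15 proximal tubule markers summed to 23613, 16387 and 21393 CPM in the Db group and to 3527, 11469 and 20206 CPM in the Db + Ato10 group, the order in which Apob and Apom stood in the Db + Ato10 libraries. In the Db group the sum was highest in replicate 1, where Apob and Apom were lowest. All 15 had negative log2 fold changes, 0 at an unadjusted p under 0.05, and Slc34a1 was the most abundant. The 12 fibroblast markers, led by Col1a2, summed to 151, 215 and 155 CPM in the Db group and to 1713, 693 and 276 CPM in the Db + Ato10 group, with 7 of 12 higher at an unadjusted p under 0.05. Urothelial and squamous markers, led by Krt5, summed to 6.20, 3.38 and 4.20 CPM and to 168, 92.8 and 27.7 CPM. Of the 8 genes listed, Upk1b, Upk2 and Upk3a had too few counts to be tested, and Krt5, Krt14 and Krt15 passed the filter only through the Db + Ato10 libraries, so they had to be higher there. The other tested genes, Trp63 and Upk1a, had edgeR log2 fold changes of 1.43 (unadjusted p = 0.0424) and -0.66 (unadjusted p = 0.181). Adipocyte markers, led by Fabp4, summed to between 88.0 and 121 CPM in the Db group and between 63.9 and 190 CPM in the Db + Ato10 group, with Adipoq and Plin1 at 3 counts or fewer in every library. The part of these cell types in the apolipoprotein levels was not tested. In bulk RNA a change in the number of cells of a type and a change in RNA per cell cannot be told apart.

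Apob, Apoa1 and Apoh are known products of the liver. The hepatocyte markers found in the table, 17 in all, were led by Serpina1a, and Serpina3k, C9 and Mup20 had 3 counts or fewer in every library. The defining marker Alb had 31.1, 19.9 and 21.8 CPM in the Db group and 1.38, 1.49 and 17.6 CPM in the Db + Ato10 group. Ahsg had at most 0.318 CPM. The hepatocyte list summed to 698, 692 and 849 CPM and to 474, 1712 and 2038 CPM, and its 3 genes at an unadjusted p under 0.05 were the fibrinogen genes Fga, Fgb and Fgg, all higher.

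**Figure D2:**
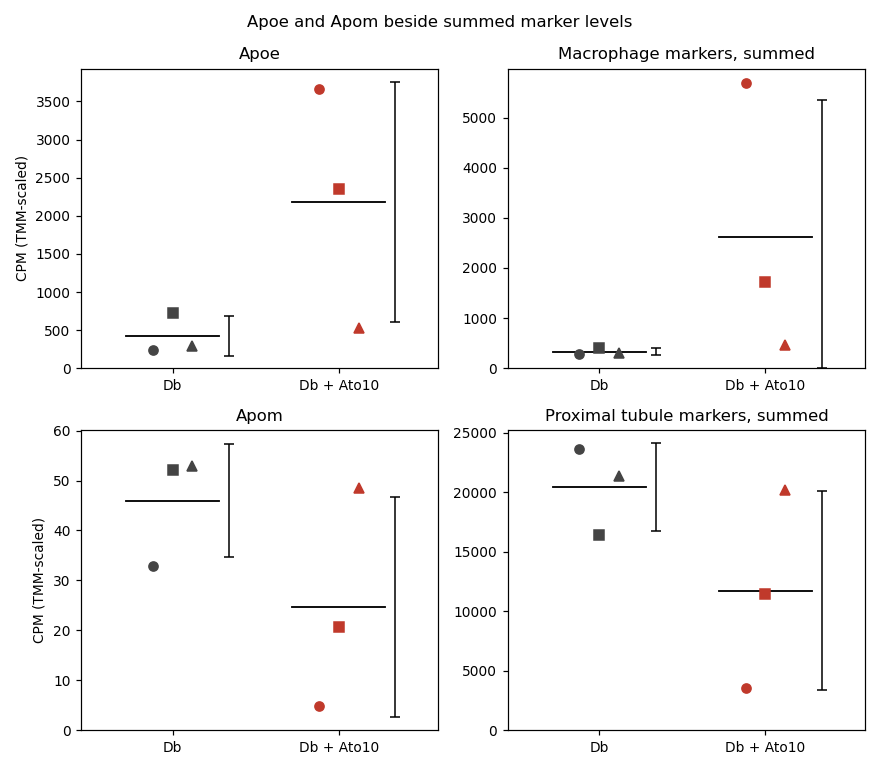
TMM-scaled CPM (vertical axes, from 0) of Apoe and Apom beside the summed CPM of 15 macrophage and 15 proximal tubule markers in the Db and Db + Ato10 groups. Circles, squares and triangles are replicates 1, 2 and 3, horizontal lines are means and bars are SD (n = 3), drawn no lower than 0. Apoe and the macrophage sum are highest in Db + Ato10 replicate 1, where Apom and the proximal tubule sum are lowest. The fibroblast sum and the urothelial and squamous sum, not drawn, are also highest in that library.

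The genes most like each of the 8 tested apolipoprotein genes over the 6 libraries, thus without Apoc4, were listed by Pearson's r of log2 CPM, as a description. The same 6 libraries, with their 2 groups, underlie every r. Apoe was most like Slc9a9 (r = 0.999), Clec4a3 (r = 0.999) and Fcrls (r = 0.997). Apoc2 was most like Efhd2 (r = 1.000), Galnt6 (r = 0.999) and Rab7b (r = 0.999). Apob was most like Rfng (r = 0.998), Mettl26 (r = 0.997) and Pxmp2 (r = 0.996), and Apom was most like Gstm7 (r = 0.999), Ttc38 (r = 0.998) and Zfp367 (r = 0.998). Between apolipoprotein genes, r was 0.969 for Apoe and Apoc2, 0.973 for Apob and Apom, 0.937 for Apod and Apoh, -0.895 for Apoe and Apob, -0.953 for Apoc2 and Apob, and -0.900 for Apoc2 and Apom. For Apoc1 and the other 7 tested apolipoprotein genes r ran from -0.582 (Apob) to 0.500 (Apoe).

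Promoter sequences are shown for Apoe, Apoc4 and Apoc2, because these genes of 1 cluster were high in the same 2 libraries. RefSeq windows from 250 bases before to 50 after the transcript start (build GRCm38.p6) were found for 8 of the 9 genes. Apoc1 was the gene without one. The motifs searched on both strands were TATAAA of core promoters, then CCAAT of CCAAT boxes, then GGGCGG of Sp-type boxes, then TGANTCA of AP-1 sites, then GAGGAA of ETS sites, and lastly DR4, which is 2 direct copies of AGGTCA with any 4 bases between them. Of 32851 promoter windows, 13.6%, 37.4%, 35.7%, 7.81%, 28.3% and 0.0152% held them, in that order. No motif match overlapped another in the printed stretches, which leave out bases in annotated exons. They lie at chr7:19699189-19699438 (Apoe), chr7:19681480-19681710 (Apoc4) and chr7:19677942-19678082 (Apoc2), all on the minus strand, and are written 5′ to 3′ with motif matches in capitals. The Apoe stretch held 1 GAGGAA, the Apoc4 stretch 1 CCAAT and 1 GGGCGG, and the Apoc2 stretch 0 of the motifs. The Apoe window is the one of 3 that starts at its most counted transcript.
Apoe: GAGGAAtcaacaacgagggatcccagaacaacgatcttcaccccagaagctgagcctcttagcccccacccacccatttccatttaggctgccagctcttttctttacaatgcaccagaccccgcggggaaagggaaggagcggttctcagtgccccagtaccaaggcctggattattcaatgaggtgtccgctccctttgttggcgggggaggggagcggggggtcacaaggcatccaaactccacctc
Apoc4: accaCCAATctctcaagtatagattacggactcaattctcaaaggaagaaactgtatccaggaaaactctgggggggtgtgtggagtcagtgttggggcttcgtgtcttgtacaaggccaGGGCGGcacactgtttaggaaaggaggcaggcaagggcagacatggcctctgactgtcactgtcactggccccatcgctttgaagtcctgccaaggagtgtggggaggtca
Apoc2: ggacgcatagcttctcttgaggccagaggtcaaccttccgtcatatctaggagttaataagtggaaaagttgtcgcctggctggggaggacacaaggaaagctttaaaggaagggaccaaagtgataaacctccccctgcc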

How the data were processed

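RNA of kidney was measured in 3 Db and 3 Db + Ato10 mice. For genes and transcripts the authors deposited expected counts, which are estimated and not normalized (91.3% of gene values were whole to within 1e-09). They also deposited FPKM, relative to length and depth, and TPM, relative to length within a fixed total. The submitters' processing notes name HISAT, Bowtie2 2.2.5 and mm9. Since some transcripts carry newer accessions, no coordinates of the deposited files are given. Expected counts were rounded and tested across all genes with edgeR 4.0.16 in R 4.3.3 (TMM, quasi-likelihood F test with installed defaults, a minimum of 10 counts in 3 or more libraries, Benjamini-Hochberg adjustment). Standard errors are the absolute log2 fold change over the root of F. A prior count of 2 entered log2 CPM. Alternatives used DESeq2 1.42.0, limma 3.58.1 (voom, and log2 of FPKM or TPM + 1), other filters and each library left out. Named were the listed apolipoprotein genes and, from each list, the most abundant tested gene, the tested gene with the smallest p in each direction, every gene of a list of 10 or fewer, and the 3 genes most correlated with each apolipoprotein gene. Only part of these is printed, and a gene that the rule names is not reported here. Saa3, Saa1, Dab2, Ahsg, the fibrinogen genes, Gm44805, the untested or filter-bound markers and those at 3 counts or fewer were named after their values were seen. The members and lists were chosen with earlier results of these data known. Sequences came from RefSeq promoters and exons from GENCODE, both on GRCm38. Python 3.11.15 with matplotlib 3.10.9 made the figures.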

Additional observations from a re-analysis of the deposited data

How the results depend on the processing

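With edgeR 0 of the 8 tested apolipoprotein genes were called (beside 0% of all tested genes). This count was also 0 with limma-voom, upper-quartile normalization, both other filters, and limma on FPKM or TPM. DESeq2 called 2 higher (beside 5.17% of all tested genes higher and 1.29% lower). With edgeR 2 were higher at an unadjusted p under 0.05 (beside 11.2% higher and 5.71% lower). Both counts hold Apoc2, whose direction the filter had set. With a library left out, by edgeR or DESeq2, 0 to 4 were called. Without Db + Ato10 replicate 3, edgeR called 2 (beside 8.18% of all genes tested), edgeR with no filter called 4 (beside 7.87%) and DESeq2 called 3, Apob, Apoe and Apom (beside 19.3%). The median log2 fold change was -0.27 and ran from -0.51 to 0.39 by edgeR with a library left out, and it was 0.076 with limma-voom. Apoc1 reversed, and ran from -0.056 to 0.89 over these edgeR fits. Apod ran from -0.68 to 0.48 and Apoh from -0.77 to 0.46, and with limma-voom they reversed to 0.098 and 0.055. Without Db replicate 2, the median, Apod and Apoh were 0.39, 0.48 and 0.47 by DESeq2 and 0.44, 0.44 and 0.44 by edgeR with no filter. Apod was also positive without Db + Ato10 replicate 2, at 0.083 (DESeq2) and 0.054 (no filter). Apoc1 was negative there, at -0.054 and -0.088, and without Db replicate 3, at -0.049 and -0.080, in the same order. Apoe, Apoc2, Apob, Apom and Apoa1 kept their direction in every fit that held them. Fits leaving out 1 Db + Ato10 library dropped Apoc2 below the filter. Those with no filter and a library left out, fold changes from DESeq2 with a library left out, and edgeR with bias-adjusted deviances (0 called) were chosen after seeing the data. The main fit took the mice as unpaired. Deviations of same-numbered libraries correlated at -0.151, 0.0613 and 0.208, and those of differently numbered libraries at -0.374 to 0.311. With so few libraries these values cannot decide whether the numbers in the labels pair the mice. With the replicate block 0 of the 8 genes were called and the median was -0.054. The cause of these changes was not tested, and counts under 10 limit Apoc2 and Apoc4.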
